A study of Mus musculus with 2 samples.

Results

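Genes of the urea cycle (*Nags*, *Cps1*, *Otc*, *Ass1* and *Asl*) and 3 genes that handle glutamine and ammonia beside it (*Gls2*, *Glul* and *Rhbg*) were examined in an ATAC-seq table of mouse liver. ATAC-seq counts the reads that the Tn5 transposase releases from a stretch of DNA, so that a higher count marks more accessible chromatin. A region of the table belonged to a gene when the symbol of its closest transcription start site (TSS) was that of the gene. This gave 34 distinct regions for the 8 genes, of 69549 in the whole table. Of these, 10 were promoter regions, with a centre within 1000 bp of the TSS, and 24 lay farther away. All coordinates are of the mouse build GRCm38.

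The series holds 1 library of *Mettl3* flox/flox livers and 1 library of *Mettl3*-HKO livers (*Mettl3* flox/flox *Alb*-*Cre*+/−), both from C57BL/6 mice on normal chow at 8 weeks of age, called control and HKO livers below. Each library was made from the pooled livers of 4 mice. Both groups carry the floxed *Mettl3* alleles, and *Cre* is under the albumin promoter, so that the deletion is directed to hepatocytes. Whether the other cells of the liver keep the gene was not measured in these data. *Mettl3* encodes the methyltransferase that writes m6A on RNA, and the comparison asks how open chromatin differs when hepatocytes lack it. With 1 library per group there was no replicate error and no test between the genotypes. Every comparison is between those libraries, and the 95% Clopper-Pearson intervals of ratios cover counting error only.

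Ammonia reaches the liver from the gut and from the breakdown of amino acids, and periportal hepatocytes turn it into urea. In the mitochondrion NAGS makes N-acetylglutamate, the essential activator of CPS1, which joins ammonia and bicarbonate to carbamoyl phosphate. OTC then forms citrulline, and in the cytosol ASS1 and ASL carry the nitrogen on through argininosuccinate. GLS2, the liver glutaminase, releases ammonia from glutamine in periportal cells. Glutamine synthetase, encoded by *Glul*, captures the ammonia that escapes in the last hepatocytes around the central vein, where the ammonia transporter RHBG is found as well.

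Promoter sequences of 4 of these genes, from RefSeq (GRCm38.p6), were at hand, and they are shown because *Nags*, *Otc* and *Ass1*, whose ratios were not distinguishable, differ widely in base composition. The bases are given 5′ to 3′ on the plus strand, on which all 4 genes lie, from 250 bases before the RefSeq start of the promoter sequence up to the earliest start annotated by RefSeq or the authors. That leaves 250 bases for *Nags* and *Glul*, 175 for *Otc*, where RefSeq places the start of the gene farther upstream, and 187 for *Ass1*, where the authors' TSS does. Capitals mark matches on either strand to the GC box, the CCAAT box or a TCF/LEF motif, whose letters are given after the sequences. They lie at chr11:102145263-102145512 for *Nags*, chrX:10252055-10252229 for *Otc*, chr2:31470020-31470206 for *Ass1* and chr1:153899679-153899928 for *Glul*.
Nags: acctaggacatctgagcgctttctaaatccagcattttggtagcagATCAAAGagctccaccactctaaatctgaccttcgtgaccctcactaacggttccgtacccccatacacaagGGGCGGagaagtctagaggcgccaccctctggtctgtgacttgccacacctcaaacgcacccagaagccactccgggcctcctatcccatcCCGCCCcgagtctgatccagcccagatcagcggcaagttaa
Otc: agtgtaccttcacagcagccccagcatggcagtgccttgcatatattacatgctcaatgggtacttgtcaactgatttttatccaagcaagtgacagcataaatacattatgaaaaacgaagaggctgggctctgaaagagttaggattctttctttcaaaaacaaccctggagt
Ass1: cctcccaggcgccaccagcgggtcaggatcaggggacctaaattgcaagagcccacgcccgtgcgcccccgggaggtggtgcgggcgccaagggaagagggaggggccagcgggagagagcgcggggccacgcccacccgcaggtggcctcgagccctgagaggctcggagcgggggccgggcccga
Glul: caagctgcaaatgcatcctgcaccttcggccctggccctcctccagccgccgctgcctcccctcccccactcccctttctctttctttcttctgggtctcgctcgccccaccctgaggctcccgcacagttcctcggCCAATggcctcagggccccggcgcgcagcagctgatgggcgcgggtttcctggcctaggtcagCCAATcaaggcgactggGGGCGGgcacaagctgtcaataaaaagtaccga

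Over the 250 bases before and the 50 after the start, *Otc* had 1 CpG and 44.3% GC, whereas *Ass1* had 27 CpG and 74.0% GC. *Nags* had 14 CpG and 57.7% GC, and *Glul* had 17 CpG and 64.3% GC. The GC box, GGGCGG, was found in *Nags*, *Glul* and *Ass1*, at the last of these beyond the bases printed, and in 35.7% of the 32851 RefSeq promoters of the same length that were searched. The CCAAT box, CCAAT, occurred in *Glul* and in 37.4% of those searched, and the TCF/LEF motif CTTTGAT in *Nags* and in 3.73%. The other motifs searched, on both strands, were TATAAA (in 13.6% of those searched), TTGCNNAA (10.8%), TGACGTCA (1.79%), CAAAGTCC (1.42%), CTTTGAA (5.14%) and TTCNNNGAA (8.30%), and these letters were in none of the 4 windows. Such a match is a match of letters and not a measured site. All 300 bases of the *Nags*, *Ass1* and *Glul* windows and 220 of those of *Otc* lay under accessible regions.

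Some features of the whole table bear on every value. The library totals behind the authors' RPM values (reads, with 1 added, relative to 1000000 of the library) were 52826202 for control and 58038305 for HKO livers, of which 31.7% and 22.3% lay on regions. With these totals (below, the authors' scale), the log2 ratio of HKO over control livers had a median of −0.38 over all regions, −0.56 over the 14387 promoter regions and −0.27 over the 55162 others. A pair of other scales is used where a call depends on it: the median-centred scale subtracts the median of all regions from every log2 ratio, and the promoter-centred scale subtracts the median of the strongest 10% of promoter regions. All 8 hepatocyte markers had a promoter region (*Alb*, *Ttr*, *Apoa1*, *Apob*, *Serpina1a*, *Hnf4a*, *Tat* and *Cyp2e1*), with a summed level of 69.8 RPM in control livers and 44.7 RPM in HKO livers and a median log2 ratio of −0.77. Of the 8 endothelial markers, 7 had one (all but *Pecam1*), with sums of 3.03 and 7.01 RPM and a median of 1.60. Promoter regions were listed for 2 of 8 macrophage markers (1.04 and 1.96 RPM), 2 of 8 stellate markers (13.8 and 3.05 RPM), 5 of 8 cholangiocyte markers (15.8 and 12.1 RPM) and 0 of 8 lymphocyte markers. The stellate pair, *Reln* and *Col1a1*, went opposite ways, with log2 ratios of −2.51 and 0.076, and the cholangiocyte markers ran from −0.75 to 1.19 with 2 of 5 above 0, so that these sums describe no whole cell type. The part of these shifts in the results for the urea cycle genes was not tested, and in bulk liver fewer hepatocytes and less accessible DNA per hepatocyte cannot be told apart. The *Mettl3* promoter itself had 566 and 392 counts, which does not check a deletion of exons.

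All 10 promoter regions of the 8 genes had a log2 ratio below 0, but so did 83.9% of all promoter regions, and those of *Cps1* and *Rhbg* changed sign on both centred scales. At the strongest promoter region the difference was largest at *Nags*, *Ass1* and *Otc*, moderate at *Gls2*, *Glul* and *Asl*, and small at *Cps1* and *Rhbg*. At least 2-fold lower were 5 of the 10 regions, against 16.3% of all promoter regions, and at least 2-fold higher were none of the 10, against 4.07% of all promoter regions. Of the 9 with a peak in both libraries, 4 were at least 2-fold lower and none higher, against 14.8% and 0.742% of all such promoter regions. Over all 10 the median log2 ratio was −1.12, compared with −0.56 over all promoter regions. On the median-centred scale, 5 of the 10 were at least 2-fold lower and none higher, against 5.0% lower and 6.90% higher of all promoter regions. On the promoter-centred scale 1 was lower, the second region of *Ass1*, and none higher, against 1.99% and 9.86%. That region had a peak in the control library alone and so entered the table through the library in which it is high.

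**Figure D1:**
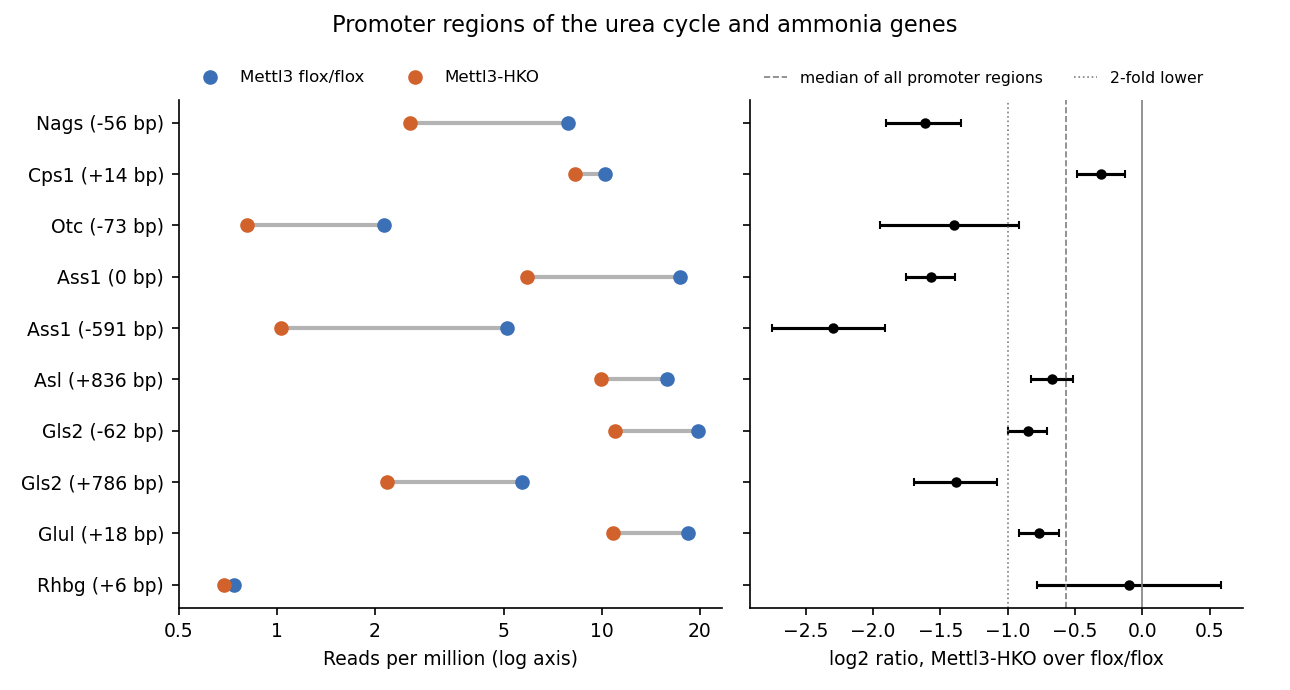
The left panel shows the RPM (log axis) of each promoter region in the *Mettl3* flox/flox and *Mettl3*-HKO library, labelled by gene and by the distance of its centre from the TSS. The right panel shows the log2 ratio with its 95% Clopper-Pearson interval, with lines at 0, at the median of all promoter regions (−0.56) and at 2-fold lower, and the regions of *Nags*, *Otc* and *Ass1* and the second region of *Gls2* lie to the left of that last line, whereas the *Cps1* and *Rhbg* ratios change sign under other scalings.

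The first mitochondrial steps did not behave alike. The *Nags* promoter region, on chromosome 11 from 102145166 to 102145749 and reaching into exon 1, had 414 counts in control livers and 148 in HKO livers, or 7.86 and 2.57 RPM. Its log2 ratio was −1.61 (95% interval −1.90 to −1.35), a level 3.06-fold higher in control livers, and only 2.27% of all promoter regions had a ratio as low. At *Cps1*, the enzyme of the next step, the region on chromosome 1 from 67122741 to 67123341, centred in the 5′ UTR, had 538 and 478 counts. This log2 ratio of −0.31 (95% interval −0.49 to −0.13) became 0.071 on the median-centred and 0.34 on the promoter-centred scale. The RefSeq start of *Cps1*, at 67122426, lies 600 bp upstream of the authors' TSS and outside this region. The log2 ratio of *Nags* minus that of *Cps1* was −1.31 (95% interval −1.65 to −0.98), a difference that no scaling of the libraries can alter.

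*Otc*, which lies on the X chromosome, had a weak promoter region from 10252135 to 10252454 that ends in exon 1. It held 112 counts in control livers and 46 in HKO livers, or 2.14 and 0.810 RPM. Its log2 ratio was −1.40 (95% interval −1.95 to −0.91), the widest interval of the 5 urea cycle genes at their strongest promoter region. The difference between *Nags* and *Otc* was −0.20, with a 95% interval from −0.79 to 0.40, so that these promoters were not distinguishable at this depth.

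*Ass1* had the lowest ratio of all 10 promoter regions. Its main region, on chromosome 2 from 31469903 to 31470512 and centred in the 5′ UTR, had 919 counts in control livers and 340 in HKO livers, or 17.4 and 5.88 RPM. The log2 ratio was −1.57 (95% interval −1.75 to −1.39). The GC-rich sequence shown above belongs to this region, and the difference from the CpG-poor *Otc* promoter had an interval from −0.41 to 0.69 around 0.15 for *Otc* minus *Ass1*. A second region, 591 bp upstream from 31469482 to 31469750, had 268 and 59 counts and a peak in the control library alone. There the log2 ratio was −2.30 (95% interval −2.75 to −1.91), a level 4.93-fold higher in control livers, and the difference from the main region was −0.75 (95% interval −1.22 to −0.29). The region entered the table through the library in which it is high, so that these values were not measured independently of that choice. Of all promoter regions, 0.285% had a ratio as low.

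*Asl* encodes argininosuccinate lyase, which acts after ASS1. Its region, on chromosome 5 from 130023758 to 130024609, is centred in exon 1 and lies 836 bp downstream of the authors' TSS, and the RefSeq start at 130024381 falls inside it. It had 834 and 576 counts and thus a log2 ratio of −0.67 (95% interval −0.83 to −0.51), which is close to the median of all promoter regions. The log2 ratio of *Ass1* minus that of *Asl* was −0.90 (95% interval −1.14 to −0.66).

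Of the genes beside the cycle, the glutaminase gene *Gls2* had a pair of promoter regions on chromosome 10. The stronger, from 128193947 to 128194844, had 1044 and 636 counts and a log2 ratio of −0.85 (95% interval −1.0 to −0.71). The weaker, in intron 1 from 128195026 to 128195461, had 300 and 126 counts and a log2 ratio of −1.38 (95% interval −1.70 to −1.08). The difference from the stronger region was −0.54 (95% interval −0.88 to −0.20). *Glul* had a single region under its own TSS, on chromosome 1 from 153899543 to 153900383 and centred in the 5′ UTR, with 971 and 627 counts, or 18.4 and 10.8 RPM. Its log2 ratio was −0.77 (95% interval −0.91 to −0.62). A region in intron 1 of *Glul*, from 153900502 to 153900730 and centred 671 bp from its TSS, is assigned to *Teddm2* in the table, and it had 130 and 95 counts and a peak in the HKO library alone. There the log2 ratio was −0.58 (95% interval −0.99 to −0.20). The difference between *Gls2* and *Glul*, −0.084 with a 95% interval from −0.29 to 0.12, did not separate the periportal ammonia-releasing gene from the pericentral ammonia-capturing one.

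The *Rhbg* promoter region, on chromosome 3 from 88254552 to 88254855 and centred in exon 1, was the weakest in both libraries, with 38 counts in control livers and 39 in HKO livers, and in the latter it was not separated from *Otc*. Its log2 ratio of −0.10 had a 95% interval from −0.78 to 0.59, which includes both 0 and the median of all promoter regions, and it became 0.28 on the median-centred scale. At this depth no difference of *Rhbg* between the libraries was detectable. Promoter regions with such low signal had higher ratios throughout the table, with a median of 0.15 in the weakest decile of promoter regions.

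**Figure D2:**
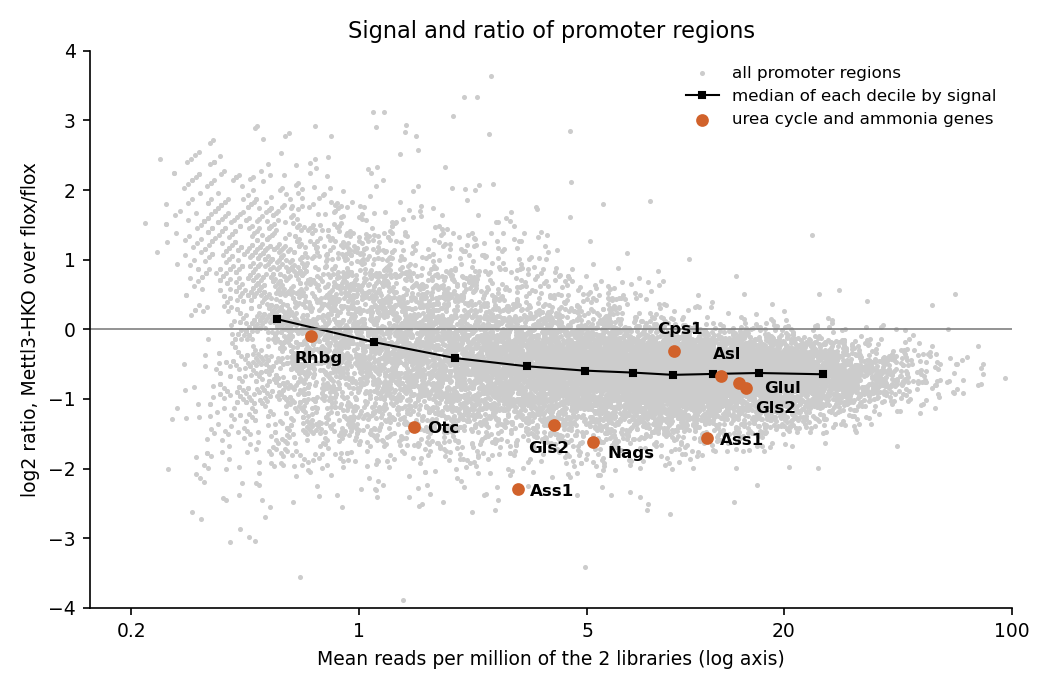
Each grey point is a promoter region, with its mean RPM over both libraries (log axis) and its log2 ratio of HKO over control livers. The black line joins the medians of the deciles by signal, from 0.15 in the weakest decile to −0.65 in the strongest, and of the 10 labelled regions those of *Ass1*, *Nags*, *Otc* and the weaker one of *Gls2* lie well under it, while *Cps1* lies above it (8 promoter regions fall outside the axes).

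The trend with signal was weak over the range of most of these promoters. In the deciles of promoter regions by signal in which the *Nags*, *Otc*, *Ass1* and weaker *Gls2* regions fall, the medians ran from −0.41 to −0.64. Against the median of its own decile, *Ass1* stood at −0.93 at its main region and −1.77 at the upstream one, *Nags* at −1.02 and *Otc* at −0.99. *Cps1* stood 0.35 above its decile, and *Asl* stood at −0.028 from its own. Base composition can be set beside these ratios. Among RefSeq promoters whose window overlaps a promoter region of the same gene, the median log2 ratio was −0.50 where the observed over expected CpG was under 0.4 (815 promoters), −0.62 from 0.4 to 0.6 (987 promoters) and −0.59 at 0.6 and above (5830 promoters). *Otc* falls in the first class, *Nags* and *Glul* in the second and *Ass1* in the last.

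The order of the promoters by level per length differed between the libraries. In the *Mettl3* flox/flox library the level was 28.6 RPM per kb at *Ass1*, followed by 22.0 at *Gls2*, 21.9 at *Glul*, 18.6 at *Asl*, 17.0 at *Cps1*, 13.5 at *Nags*, 6.68 at *Otc* and 2.43 at *Rhbg*. The exact Poisson intervals of the neighbours *Gls2* and *Glul*, and *Asl* and *Cps1* overlapped, and those of the other neighbours did not. In HKO livers *Cps1* came first, with 13.7 RPM per kb. It was followed by *Glul* with 12.9, *Gls2* with 12.2, *Asl* with 11.7, *Ass1* with 9.63, *Nags* with 4.4, *Otc* with 2.53 and *Rhbg* with 2.27. Here neighbouring intervals overlapped from *Cps1* to *Asl* and between *Otc* and *Rhbg*. Of the 28 pairs of genes, the log2 ratios of the strongest promoter regions differed with an interval that did not include 0 in 19, without adjustment for the number of pairs. Among *Nags*, *Otc* and *Ass1*, every pairwise interval included 0.

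Beyond the promoters, *Glul* had no other region under its own TSS and the remaining 7 genes had 24. Of these, 8 were at least 2-fold lower in HKO livers, against 18.8% of all regions outside promoters, and 2 were at least 2-fold higher, against 15.6%. Their median log2 ratio was −0.72, compared with −0.27 over all such regions. Part of this contrast goes with signal, since 21 of the 24 lie in the 3 strongest deciles of regions outside promoters. Of these 21, 8 were at least 2-fold lower, against 23.4% of all regions in these deciles, and 1 was at least 2-fold higher, against 3.11%. The median was −0.75, compared with −0.60 over all regions there. This split depends on the scaling. On the median-centred scale, 4 of the 24 were lower and 3 higher, against 8.65% and 23.5% of all such regions, and on the promoter-centred scale 2 were lower and 5 higher, against 4.69% and 30.2%. A peak was called in the control library alone in 9 of the 34 regions, against 16.8% of all regions, and in the HKO library alone in 3, against 21.5%. A region with a peak in 1 library entered the table through that library, and 5 of the 8 lower regions had a peak in the control library alone, while both higher ones had a peak in the HKO library alone. Among the 13 regions outside promoters with a peak in both libraries, 3 were at least 2-fold lower, against 15.7% of all such regions, and none at least 2-fold higher, against 3.76%. On the authors' scale the 8 lower regions belonged to *Ass1* (6), *Nags* (1) and *Otc* (1). The 2 that stayed past 2-fold on both centred scales were the *Nags* region and the one in intron 5 of *Ass1*, both with a peak in the control library alone.

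**Figure D3:**
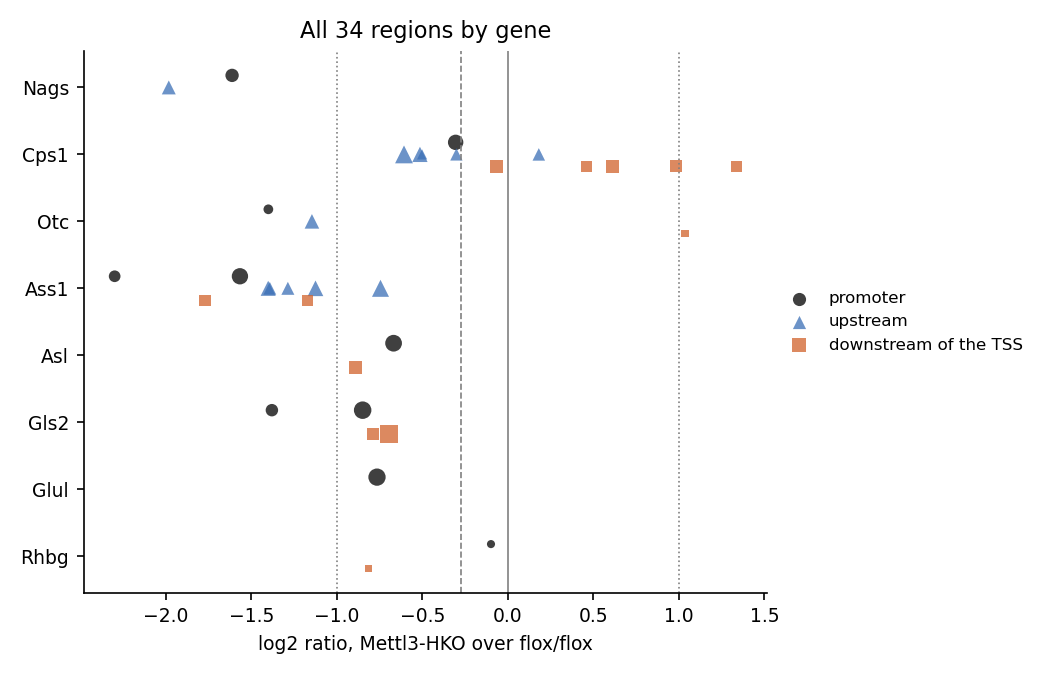
Each symbol is 1 of the 34 regions, placed by its log2 ratio of HKO over control livers in the row of its gene, with promoter regions as circles, upstream regions as triangles and downstream regions as squares, and a larger symbol for more RPM. Lines mark 0, a 2-fold change in either direction and the median of all regions outside promoters (−0.27), and the regions of *Ass1* and *Nags* lie at −0.75 or below on the authors' scale, whereas those inside *Cps1* reach 1.33.

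The 7 regions of *Ass1* outside its promoter were all lower in HKO livers, from −1.77 to −0.75, where 59.8% of all regions outside promoters had a ratio below 0. Of the 7, 4 had a peak in the control library alone, the ones at 6678 and 11494 bp upstream and in introns 5 and 12. All 7 stayed below 0 on the median-centred and promoter-centred scales, on which 45.7% and 33.7% of all such regions did. The strongest, on chromosome 2 from 31464326 to 31465006 and centred 5541 bp upstream, had 910 and 596 counts and the smallest difference, a log2 ratio of −0.75 (95% interval −0.90 to −0.60). The lowest ratio was in intron 5, from 31482898 to 31483148, with 248 counts in control livers and 79 in HKO livers, at −1.77 (95% interval −2.17 to −1.42). Past 2-fold were also the upstream regions centred 6678, 9709, 10933 and 11494 bp from the TSS, with log2 ratios of −1.29, −1.13, −1.40 and −1.39, or −0.91, −0.75, −1.02 and −1.02 on the median-centred scale. The last 3 lie in the neighbouring gene *Hmcn2*. In intron 12 the region from 31508808 to 31509024 had 194 and 94 counts and thus a log2 ratio of −1.17, or −0.80 on the median-centred scale. The share of the reads over all 9 *Ass1* regions that lay at the promoter was 25.9% in control livers (95% Clopper-Pearson interval 24.6% to 27.2%) and 19.1% in HKO livers (17.4% to 20.8%).

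The single further region of *Nags*, 2648 bp upstream on chromosome 11 from 102142421 to 102143310, had 521 and 144 counts and a peak in the control library alone. Its log2 ratio of −1.98 (95% interval −2.27 to −1.72) was the lowest among the 24 regions outside promoters. A region in intron 1 of *Nags*, from 102145763 to 102146456, belongs to the TSS of ENSMUSG00000087339 in the table and had 350 and 210 counts and thus a log2 ratio of −0.87. The strong region 12391 bp upstream of *Otc*, from 10239342 to 10240611 on the X chromosome, is 1270 bp long and had 537 and 266 counts and thus a log2 ratio of −1.15 (95% interval −1.37 to −0.93), or −0.77 on the median-centred scale. In intron 4 of *Otc*, in contrast, a weak region from 10281277 to 10281588, with a peak in the HKO library alone, had 19 counts in control livers and 44 in HKO livers. Its log2 ratio was 1.03 (95% interval 0.27 to 1.93), in the decile of regions outside promoters whose median was 0.28.

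At *Gls2* the strongest region, from intron 6 into intron 7 on chromosome 10 from 128201527 to 128202499, had 1118 and 759 counts and thus a log2 ratio of −0.69 (95% interval −0.83 to −0.56). The other region, centred in exon 3 from 128199527 to 128199768, had 199 and 126 counts and a log2 ratio of −0.79. *Asl* had 283 and 167 counts in intron 1, on chromosome 5 from 130022407 to 130022787, a log2 ratio of −0.89 (95% interval −1.18 to −0.62). The distal *Rhbg* region, centred 17018 bp downstream of the TSS and beyond the gene, held 23 and 14 counts, and its 95% interval from −1.92 to 0.17 included 0.

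At *Cps1*, 4 of the 5 regions inside the gene were higher in HKO livers, against 40.3% of all regions outside promoters that are centred in a gene. On the median-centred and promoter-centred scales all 5 were, against 54.7% and 66.8%. Upstream, 4 of the 5 were lower on the authors' scale, not far from the 59.8% of all upstream regions outside promoters, and none was on the promoter-centred scale, against 33.1%. The strongest of its 11 regions, 6241 bp upstream on chromosome 1 from 67116395 to 67117176, had 1063 counts in control livers and 766 in HKO livers, a log2 ratio of −0.61 (95% interval −0.74 to −0.47) that became 0.038 on the promoter-centred scale. Over the 5 upstream regions the log2 ratio ran from −0.61 to 0.18, with a median of −0.50, or 0.14 on the promoter-centred scale. The region at 5057 bp upstream, with 199 and 248 counts, had the value of 0.18.

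Inside the gene, the 5 regions had a median log2 ratio of 0.61, and of 0.99 and 1.26 on the median-centred and promoter-centred scales, against −0.27 on the authors' scale over all 27997 regions outside promoters that are centred in a gene. In the region centred in intron 10, from 67157872 to 67158091, the counts were 73 and 204, a log2 ratio of 1.33 (95% interval 0.95 to 1.75) and the highest of the 34 regions. In intron 1, from 67133561 to 67133810, they were 121 and 264, a log2 ratio of 0.98 (95% interval 0.67 to 1.31). The region centred in exon 18, from 67172589 to 67172807, had 138 and 209 counts at 0.46, and that in intron 20, from 67176979 to 67177326, had 188 and 316 at 0.61. The region nearest to the TSS, 2638 bp into intron 1, had 263 and 276 counts and a log2 ratio of −0.07, which turned to 0.31 on the median-centred scale. The regions in intron 10 and at 10659 bp in intron 1, the highest of the 5, had a peak in the HKO library alone and so entered the table through the library in which they are high, while that in exon 18 had one in the control library alone. Without that pair, the remaining 3 regions stood at 0.61, 0.46 and −0.07. In summed counts the 5 regions held 783 in control livers and 1269 in HKO livers. All 5 are short, 219 to 364 bp, and fall in the deciles 8 and 9 by signal, whose medians over all regions outside promoters were −0.48 and −0.61.

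Measured against the *Cps1* promoter region, the difference in log2 ratio was 1.65 (95% interval 1.22 to 2.10) in intron 10, 1.30 (0.93 to 1.67) at 10659 bp in intron 1, 0.92 (0.60 to 1.24) in intron 20 and 0.77 (0.40 to 1.14) in exon 18. These differences between regions of 1 gene do not depend on how the libraries are scaled, but the first 2 are of the regions with a peak in the HKO library alone, and were not measured independently of that choice. A further 3 regions in introns 21 and 25 of *Cps1* are assigned to the TSS of ENSMUSG00000086204. They had 202 and 337, 132 and 220, and 168 and 206 counts, with log2 ratios of 0.60, 0.60 and 0.16. The first 2, in intron 21, had a peak in the HKO library alone and so entered the table through the library in which they are high. The last, with a peak in both libraries, had a 95% interval from −0.14 to 0.46, which includes 0. Just past the 3′ end of *Cps1*, the next regions, 246 and 921 bp from the end of the gene, had log2 ratios of −0.36 and −0.31, close to the −0.38 of all regions and so near 0 on the median-centred scale.

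**Figure D4:**
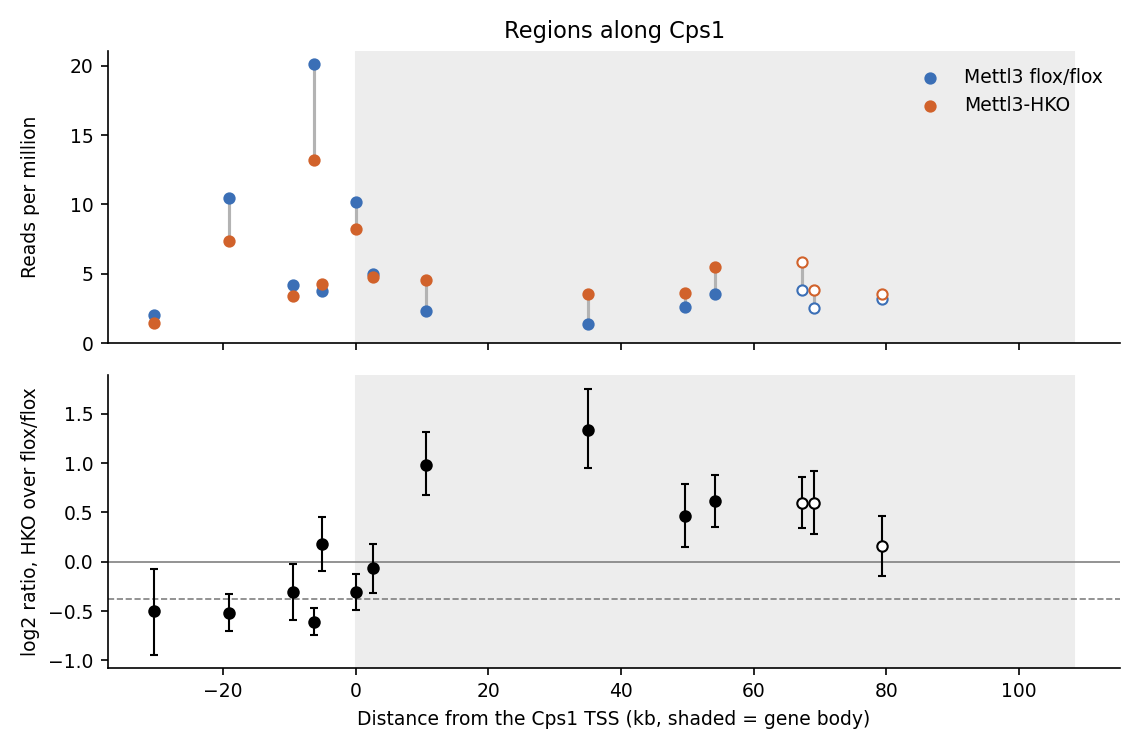
The RPM (upper panel) and the log2 ratio with its 95% Clopper-Pearson interval (lower panel) are plotted against the distance in kb from the *Cps1* TSS, with the gene body shaded, a dashed line at the median of all regions (−0.38) and open symbols for 3 regions assigned to another TSS. Upstream regions and the promoter lie near or under the dashed line except for the one at 5057 bp, and change sign under other scalings. The regions from 10659 bp onward lie above 0 on the authors' scale. Of these, the ones at 10659 bp and in intron 10 and both open symbols in intron 21 had a peak in the HKO library alone.

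Over the 26 comparisons of a region with the strongest promoter region of its own gene, the ratio was higher than at the promoter in 8, lower in 3 and not separated in 15, by the 95% interval of the difference and without adjustment for their number. Over all 18341 such comparisons at genes with a symbol the ratio was higher than at the promoter in 38.6% and lower in 15.9%, so that both counts were near the background. With a peak in both libraries, it was higher in 4 of 14 and lower in 2, against 34.7% and 16.9%. Of the 8 higher ones, 5 belonged to *Cps1* and 2 to *Ass1*, where the regions 5541 and 9709 bp upstream exceeded the promoter by 0.82 and 0.44. The remaining one was the intron 4 region of *Otc*, which exceeded its promoter by 2.48 (95% interval 1.51 to 3.50) and had a peak in the HKO library alone. The 3 lower ones were the weaker promoter regions of *Ass1* and *Gls2* and the strongest upstream region of *Cps1*.

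A further 40 genes of ammonia, glutamate and amino acid metabolism were looked up, 16 carriers and 24 enzymes, and 29 of them had a promoter region. With the strongest promoter region per gene, 8 of the 29 were at least 2-fold lower in HKO livers, against 15.3% of all 10603 genes with a symbol and a promoter region, and none at least 2-fold higher, against 2.6%. This count depends on the scaling. On the median-centred scale 3 were lower, against 3.73% of all genes, on the promoter-centred scale none, against 1.29%, and with scaling to the reads in regions 2, against 2.21%. None was at least 2-fold higher under these scalings, against 4.44%, 6.61% and 5.46% of all genes. The median log2 ratio of the 29 genes, −0.70, was near the −0.58 of all genes, and the median over the strongest promoter regions of the 8 genes above was −0.81.

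The carbonic anhydrases of the mitochondrion, which supply the bicarbonate for CPS1, were among the lowest. *Car5b* had 404 and 147 counts (log2 ratio −1.59, 95% interval −1.88 to −1.32), and *Car5a* had 388 and 163 counts (−1.38, 95% interval −1.66 to −1.12). The mitochondrial glutamate carrier gene *Slc25a22* had 206 and 75 counts, a log2 ratio of −1.58 and a peak in the control library alone. These 3 were past 2-fold on the median-centred scale too, with *Car5a* close to the threshold, and not on the promoter-centred scale. At least 2-fold lower on the authors' scale, but on neither centred scale, were the agmatinase gene *Agmat* (−1.27), the ornithine aminotransferase gene *Oat* (−1.26), the glycine decarboxylase gene *Gldc* (−1.25), the serine dehydratase gene *Sds* (−1.11) and the dicarboxylate carrier gene *Slc25a10* (−1.03), which on the median-centred scale stood between −0.90 and −0.66. The *Agmat* region, like that of *Slc25a22*, had a peak in the control library alone and so entered the table through the library in which it is high.

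At the other end, *Aldh18a1*, for the synthesis of proline and ornithine, had 82 and 110 counts at 0.28, with an interval from −0.14 to 0.72. The asparagine synthetase gene *Asns* had 321 and 349 counts at −0.02, which is 0.36 on the median-centred scale. *Aqp9*, which encodes a glycerol and urea channel of hepatocytes, had 282 and 292 counts at −0.09, or 0.29 on the median-centred scale. A pair of carriers that serve the urea cycle, picked here after their values were seen, were not past 2-fold. The ornithine carrier gene *Slc25a15* had a log2 ratio of −0.68 and the aspartate-glutamate carrier gene *Slc25a13* one of −0.91.

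**Figure D5:**
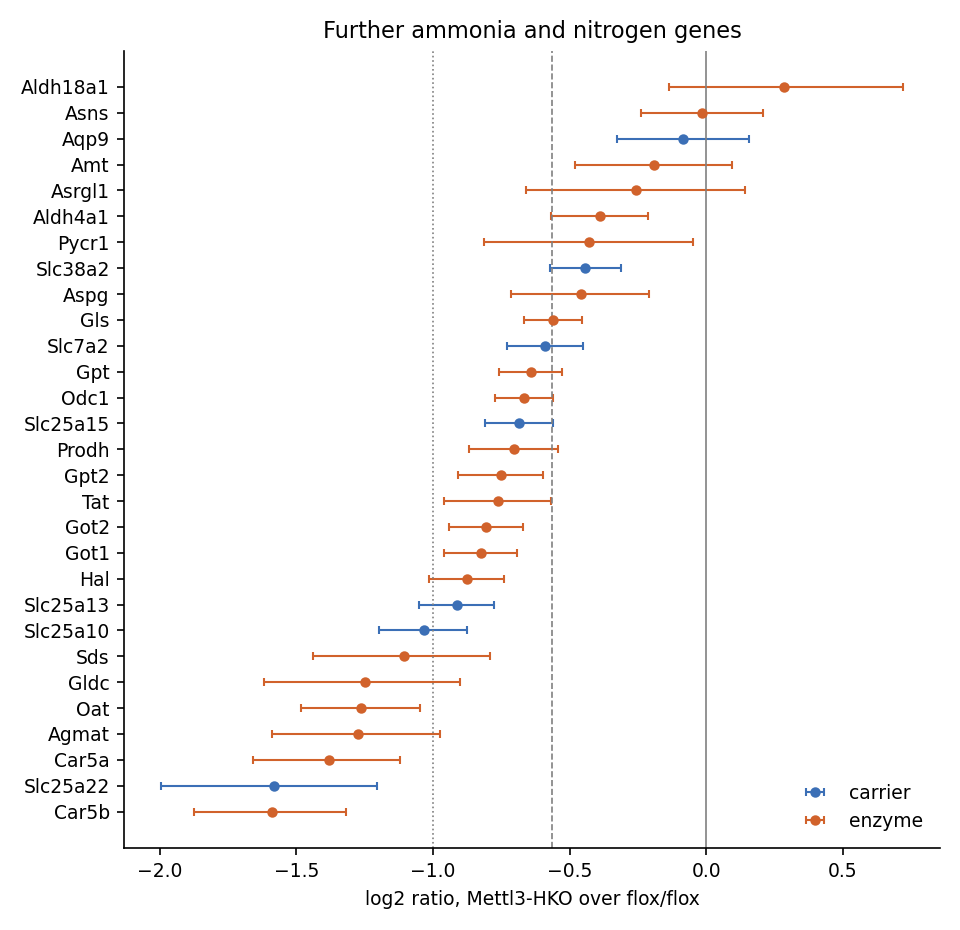
The log2 ratio of HKO over control livers at the strongest promoter region is shown with its 95% Clopper-Pearson interval for the 29 further genes with a promoter region, carriers and enzymes in separate colours. Lines mark 0, the median of all promoter regions (−0.56) and 2-fold lower, and 8 genes from *Slc25a10* to *Car5b* lie past 2-fold lower on the authors' scale, of which 3 do so on the median-centred and none on the promoter-centred scale, and none lies past 2-fold higher on any of these.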

How the data were processed

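Nuclei of pooled livers were transposed with Tn5 and sequenced as paired ends, with 1 library per genotype and 4 mice per pool. The authors trimmed adaptors with skewer, aligned reads with BWA to GRCm38, kept proper, non-mitochondrial pairs filtered at a mapping quality of 13, and ran MACS2 per library with duplicates retained. How reads were counted and whether ends were shifted for Tn5 is not given in the sources used here. For each region the authors deposited the raw count per library, the RPM (count plus 1 over the library total) and a fold enrichment ratio over the genome mean, which was not used. They also deposited a log2 ratio of the libraries, which was not used. Repeated rows (5272) were dropped, and starts were converted to count from 1.

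Log2 ratios (HKO over control livers) were computed from counts with 1 read added and the totals recovered from the RPM values. Some items are not reported here and entered no count over the genes or lists. Calls are a fold of at least 2. Intervals are 95% Clopper-Pearson, exact conditional for differences between regions and exact Poisson for levels. Kept duplicates make reads less independent than these assume. The code was tested on simulated counts. The genes, lists and thresholds were chosen with earlier results of these data known. Named were all regions of the 8 genes at promoters and, elsewhere, the strongest, lowest and highest (at least 20 counts in a library) and those past 2-fold. Of the further genes, those past 2-fold and the 3 highest and 3 lowest were named. Regions assigned to other genes, further regions of *Cps1*, *Gls2* and *Rhbg*, *Slc25a15*, *Slc25a13* and the intervals chosen for comparison were added after the values were seen. Promoter sequences and RefSeq starts come from GRCm38.p6. The set of promoter sequences used here covered 4 of the 8 genes, and those of the other 4 were not analysed here. Alternatives concerned the scaling, the added reads, the promoter window, a filter on signal or on peaks, the fold and the regions per gene. Computation ran in Python (3.11.15) with scipy (1.17.1), pandas (2.3.3) and numpy (2.4.6), and plots in matplotlib (3.10.9).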

Additional observations from a re-analysis of the deposited data

How the results depend on the processing

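The scaling of the libraries moved all ratios together, and nothing here stands in for replicate livers. The median log2 ratio of the 10 promoter regions, −1.12, became −0.74 on the median-centred scale, −0.47 on the promoter-centred scale, −0.60 with scaling to the reads in regions, −1.05 with 10 reads added, −0.85 within 500 bp of the TSS and −0.81 with the strongest region per gene. For the 24 other regions, −0.72 became −0.34, −0.074, −0.21 and −0.65 under the first 4 of these and −0.61 with regions that had a peak in both libraries. The further genes moved from −0.70 to −0.33, −0.059 and −0.19 under the 3 scalings and to −0.75 within 2000 bp. Their count at least 2-fold lower, recomputed by a choice made after seeing the data, went from 8 to 3, 0 and 2 under the 3 scalings and to 19 at 1.5-fold, against 49.97% of all genes. Of promoter regions at least 2-fold lower, 5 became 1 on the promoter-centred scale (1.99% of all promoter regions), 3 with scaling to the reads in regions (3.15%), 3 of 7 within 500 bp (15.9%) and 8 at 1.5-fold (47.8%). The count of other regions at least 2-fold lower went from 8 to 4, 2 and 2 under the 3 scalings in the order above (8.65%, 4.69% and 6.42% of all such regions) and to 14 at 1.5-fold (36.5%). The count at least 2-fold higher went from 2 to 5 on the promoter-centred scale (30.2%), 4 with scaling to the reads in regions (26.7%), 1 with 10 reads added (10.2%), 1 in the upper 50% of mean signal (4.95%) and 4 at 1.5-fold (24.3%). By choices made after seeing the data, 3 of 13 other regions with a peak in both libraries were lower (15.7%) and 0 higher (3.76%), and 1 of 21 in the 3 strongest deciles by signal was higher (3.11%).

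Under the 3 scalings in that order, the *Cps1* promoter region changed sign from −0.31 to 0.071, 0.34 and 0.21, the *Rhbg* promoter region from −0.10 to 0.28, 0.55 and 0.41, and the *Cps1* region 2638 bp inside the gene from −0.07 to 0.31, 0.58 and 0.45. The *Cps1* region 9523 bp upstream went from −0.30 to 0.076, 0.34 and 0.21. On the promoter-centred scale the upstream *Cps1* regions at 6241, 19139 and 30359 bp also changed sign, to 0.038, 0.13 and 0.14, the last with scaling to the reads in regions as well, to 0.0094. Each shift follows from the scaling itself, which adds a constant to every ratio, and differences between regions are not affected by it. The promoter regions of the other 6 genes stayed below 0 under every alternative that gave a value. The *Otc* and *Rhbg* promoters fall below the median signal and *Asl* has no region within 500 bp, so that those alternatives gave no value for them. No paired analysis was possible because each group has 1 library. The depth limits *Rhbg* and *Otc* most.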
